A study of Saccharomyces cerevisiae with 16 samples.

Results

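Mot1 is an ATPase that strips the TATA-binding protein (TBP) from DNA, and TBP is the factor on which the transcription machinery assembles at promoters. Yeast delivers TBP mainly through the co-activator complexes TFIID and SAGA, and the title of the series contrasts TFIID at housekeeping promoters with SAGA at regulatable ones. The comparison described here is that of newly made RNA in the Mot1 anchor-away strain and in its parent 10 min after both received rapamycin. It rests on 4 of the 16 dual-colour arrays of the series, 2 of Mot1-aa and 2 of WT-aa, and covers all 5315 named genes on the array.

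Both strains come from the MATalpha strain BY4742 and share tor1-1 and a deletion of fpr1, which make growth insensitive to rapamycin. Both also carry the anchor, RPL13A-FKBP12-NAT, together with MET15 and the markers his3-1, leu2, lys2 and ura3. Mot1-aa carries in addition Mot1-FRB-yEGFP-3V5. Rapamycin joins FRB to FKBP12, so that tagged Mot1 is carried out of the nucleus on ribosomal subunits, while WT-aa has the anchor and no FRB tag. The medium was synthetic complete with 2% glucose, and rapamycin was present at 7.5 µM for 10 min. During the final 6 min the cells also had 5 mM 4-thiouracil, which newly made RNA takes up in place of uracil. The labelled RNA was captured, amplified and hybridised against a pool of labelled RNA from WT-aa cultures without rapamycin.

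The labels describe 2 independent cultures of each strain, so n = 2 per strain. They do not say whether the time points came from the same cultures, or whether each strain is 1 clone. Culture 1 samples carried Cy3 and culture 2 samples Cy5, with the pool in the other dye. Both arrays of a culture number had the same dye orientation, so a dye effect cancels within each culture number. Each value is the log2 ratio of a gene's labelled RNA to that of the same gene in the pool. A strain difference is Mot1-aa minus WT-aa on this log2 scale. Each array was centred on its typical gene, so a change shared by all genes was not measured.

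Gene spots on the 4 arrays lay 23.9 to 29.2 times over background, and 97.8% to 99.4% of genes exceeded the 99th percentile of negative control spots. The SD of a single spot, estimated from duplicate spots, was 0.035 to 0.046 (log2). Capture, labelling and hybridisation noise were not measured apart from the difference between cultures, and the number of arrays limits the precision. MOT1 (YPL082C) stood at 0.40 and -2.31 in Mot1-aa cultures 1 and 2 and at 0.25 and 0.06 in WT-aa. The Mot1-aa cultures lay on opposite sides of WT-aa, and the difference of -1.10 (SE 0.56) did not pass the test (adjusted p = 0.255 by limma). Without culture 1 of Mot1-aa it was -2.30 (adjusted p = 0.000769 by limma). That p, like every p with a 10 min array left out, assumes that the lone array varies like the other groups, and it leaves out the gap between the cultures. Depletion acts on the protein, not on transcription of MOT1, and so cannot be checked from this value. RPL13A, the anchor gene, was called neither higher nor lower (-0.35, adjusted p = 0.273), nor were TOR1, HIS3, LEU2, LYS2, URA3 and MET17, between -0.04 and 0.32. FPR1, the deleted gene, was not among the named genes. Both strains and the pool are alpha cells, so the ratios do not check mating type. Of 4 alpha-cell markers 1 was called, MF(ALPHA)2, which was lower, and STE3, the receptor for a-factor, was at 0.30 (adjusted p = 0.0501 by limma). Of 6 a-cell markers 0 were called, with differences from -0.20 to 0.07, and all markers of both lists were above the negative spots.

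Of the 5315 genes, 514 (9.67%) passed an adjusted p of 0.05 in limma's test over all genes, 393 higher (7.39%) and 121 lower (2.28%) in Mot1-aa. WSC4, BNA4 and ARO10 had the largest positive and FIT2, ENB1 and FRE4 the largest negative differences among the called genes. Of the called genes 30 were higher by over 2-fold and 2 were lower by over 2-fold. The median called difference was 0.52 among the higher and -0.36 among the lower genes. Both Mot1-aa arrays lay above both WT-aa arrays in 389 of the 393 higher genes, and below them in 114 of the 121 lower genes. Over all genes the arrays separated in this way for 940 genes upward (17.7%) and 969 downward (18.2%), so separation alone was common. An exact test of 2 arrays against 2 cannot go below p = 0.333, and every call below comes from limma's pooled estimate of the spread. That estimate takes the spread to be the same in all 8 groups. Weights that limma estimates for each array were lowest for the Mot1-aa arrays of 10 min, at 0.148 each against 3.13 in WT-aa. With these weights 92 genes were called.

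The count over all 5315 genes depended on single arrays, and list counts below with an array left out are to be read against it. Without Mot1-aa culture 1 it was 1945 (963 higher, 982 lower), without Mot1-aa culture 2 it was 732, and without WT-aa cultures 1 and 2 it was 220 and 177. A gene named below as higher or lower stayed past the threshold without any 1 of the 16 arrays, except where a sentence says otherwise. Of the 15 genes highest and the 15 lowest in Mot1-aa, 14 and 9 did so. These were taken from called genes whose 2 Mot1-aa arrays both lay on the same side of both WT-aa arrays. Where they are said below not to overlap, this was a condition of the choice and not a result. Most members named from gene lists had among the smallest p of their list and do not stand for all its genes.

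WSC4 (YHL028W), of the family of cell wall stress sensors, showed the largest difference of all called genes. It stood at 1.54 and 2.31 in Mot1-aa and at -0.04 and -0.11 in WT-aa, a difference of 1.99 (SE 0.18, 3.98-fold, adjusted p = 8.02e-05 by limma). Both Mot1-aa arrays were far above both WT-aa arrays, and WT-aa lay near the level of the pool. GSC2 (YGR032W), a catalytic subunit of the enzyme that makes the glucan of the cell wall, stood at 1.38 and 1.44 against 0.13 and 0.14, a difference of 1.28 (SE 0.13). RPI1 (YIL119C), a regulator of cell wall genes, stood at 1.67 and 1.42 against 0.26 and -0.22, a difference of 1.53 (SE 0.11). The arrays of the 2 strains did not overlap for either gene. PRY1 (YJL079C), which encodes a secreted protein that binds sterols, was higher by 1.55 (SE 0.15, adjusted p = 0.000146 by limma).

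BNA4 (YBL098W) encodes the kynurenine monooxygenase on the route from tryptophan to NAD. It stood at 1.70 and 2.01 in Mot1-aa and at -0.06 and -0.08 in WT-aa, a difference of 1.92 (SE 0.09, 3.80-fold, adjusted p = 2.14e-06 by limma). BNA1 (YJR025C), which acts later on the same route, went the other way, with -0.83 and -0.60 against -0.12 and -0.16, a difference of -0.57 (SE 0.09). Of the 12 genes of NAD synthesis measured, 1 was higher and 2 were lower, and their median difference was 0.02. Without Mot1-aa culture 1, 3 were higher and 3 lower, and without either WT-aa array 1 was lower.

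ARO10 (YDR380W) and ARO9 (YHR137W) encode the decarboxylase and an aminotransferase that break down aromatic amino acids. ARO10 stood at 1.27 and 1.78 in Mot1-aa and at -0.19 on both WT-aa arrays, a difference of 1.72 (SE 0.16, 3.29-fold, adjusted p = 0.000139 by limma). ARO9 stood at 0.90 and 1.28 against -0.32 and -0.33, a difference of 1.41 (SE 0.17). Neither gene's strains overlapped. GCV1 (YDR019C) and GCV2 (YMR189W) encode subunits of glycine decarboxylase, which feeds one-carbon metabolism. GCV1 stood at 1.08 and 1.00 against -0.45 and -0.46, a difference of 1.50 (SE 0.09, adjusted p = 7.71e-06 by limma), and GCV2 was higher by 1.12 (SE 0.13). SHM2 (YLR058C), the cytosolic serine hydroxymethyltransferase, was higher by 0.97 (SE 0.12).

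HSP26 (YBR072W), a small heat shock protein, was below the pool in WT-aa and above it in Mot1-aa. It stood at 0.69 and 0.75 against -0.84 and -0.73, a difference of 1.50 (SE 0.10, 2.83-fold, adjusted p = 1.51e-05 by limma). XBP1 (YIL101C), a stress-induced repressor, stood at 1.28 and 1.59 against 0.03 and -0.12, and was higher by 1.48 (SE 0.18). GAD1 (YMR250W), glutamate decarboxylase, stood at 0.72 and 1.40 against -0.30 and -0.19, and was higher by 1.30 (SE 0.15). All 3 genes had separate strains, with the Mot1-aa cultures of GAD1 the farthest apart. YLR112W and YHR140W, whose functions are not known, were higher by 1.66 (SE 0.11) and 1.30 (SE 0.06).

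PHM8 (YER037W), a phosphatase made when phosphate is scarce, stood at 1.24 and 0.63 against -0.32 and -0.37, and was higher by 1.28 (SE 0.19). CAR2 (YLR438W), ornithine transaminase of arginine breakdown, stood at 0.92 and 2.20 against 0.06 and 0.20. Its difference of 1.43 (SE 0.24) missed the threshold without WT-aa culture 2 (adjusted p = 0.0627 by limma), and it was 0.94 without Mot1-aa culture 2.

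**Figure D1:**
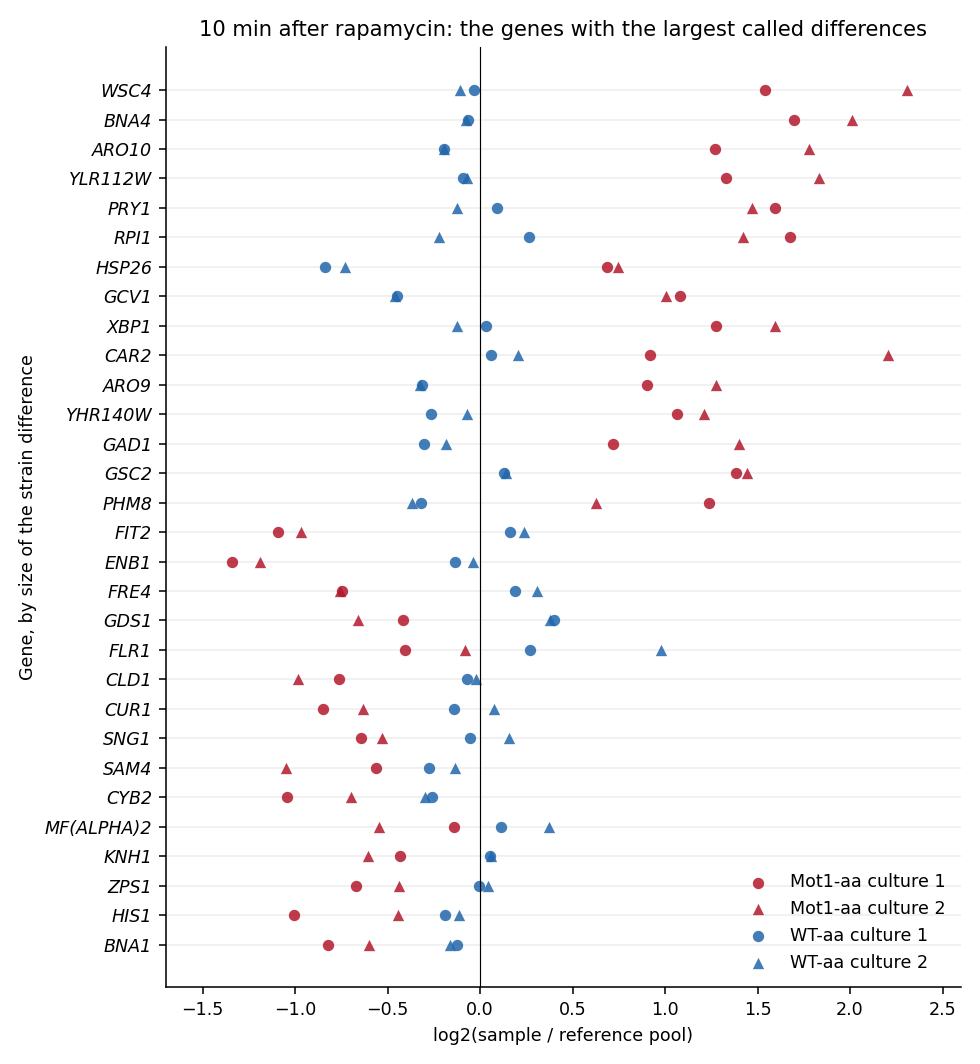
The log2 ratio of sample over reference pool (x axis) on each of the 4 arrays of 10 min, for the 15 genes highest and the 15 genes lowest in Mot1-aa (y axis). Red marks are Mot1-aa and blue marks WT-aa, circles culture 1 and triangles culture 2. Only called genes whose strains did not overlap were eligible. WSC4 heads the list at 1.54 and 2.31 in Mot1-aa, and FIT2 heads the lower genes at -1.09 and -0.97.

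The 3 called genes with the largest negative differences act in iron acquisition. FIT2 (YOR382W), a cell wall protein that holds iron siderophores, stood at -1.09 and -0.97 in Mot1-aa and at 0.16 and 0.24 in WT-aa, a difference of -1.23 (SE 0.09, 2.35-fold lower, adjusted p = 2.48e-05 by limma). ENB1 (YOL158C), a siderophore transporter, stood at -1.34 and -1.19 against -0.13 and -0.04, a difference of -1.18 (SE 0.08). FRE4 (YNR060W), a ferric reductase of the cell surface, stood at -0.75 and -0.76 against 0.19 and 0.31, a difference of -0.999 (SE 0.12). All 3 genes were below the pool on both Mot1-aa arrays and did not overlap with WT-aa. Of the 29 genes of the iron regulon measured, 6 were lower and 3 were higher, with a median of -0.06. The lower ones included the siderophore transporter SIT1 (YEL065W) at -0.52 (SE 0.08). Another transporter, ARN1 (YHL040C), was at -0.50 (SE 0.12) and missed the threshold without either WT-aa array or Mot1-aa culture 2 (highest adjusted p = 0.176 by limma). The higher ones included FET4 (YMR319C), a low-affinity iron transporter, at 0.64 (SE 0.10), and HMX1 (YLR205C), which breaks down heme, at 0.93 (SE 0.17). HMX1 missed the threshold without WT-aa culture 2 (adjusted p = 0.0749 by limma). SIT1, ARN1 and HMX1 were picked once their values were known. The median of the iron genes was -0.29 and 0.0083 without Mot1-aa cultures 1 and 2, and -0.05 and -0.07 without WT-aa cultures 1 and 2. At 30 min 15 of the 29 iron genes were higher and 5 lower, with a median of 0.31, while 1321 and 1289 of all 5315 genes were higher and lower.

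Among the other lower genes, GDS1 (YOR355W) stood at -0.42 and -0.66 against 0.40 and 0.38, a difference of -0.93 (SE 0.09). CLD1 (YGR110W), a cardiolipin phospholipase of mitochondria, stood at -0.77 and -0.99 against -0.07 and -0.02, a difference of -0.83 (SE 0.09). FLR1 (YBR008C), a drug exporter, stood at -0.41 and -0.08 against 0.27 and 0.98, and its difference of -0.87 (SE 0.17) missed the threshold without WT-aa culture 2 (adjusted p = 0.114 by limma). The strains did not overlap for any of the 3 genes, but the WT-aa cultures of FLR1 lay far apart. CUR1 (YPR158W), which sorts misfolded proteins, SNG1 (YGR197C), linked to drug resistance, and KNH1 (YDL049C), of cell wall glucan synthesis, were lower at -0.71 (SE 0.11), -0.64 (SE 0.08) and -0.57 (SE 0.07).

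Each of the remaining 5 of the 15 lowest genes missed the threshold when at least 1 of the arrays was left out. CYB2 (YML054C), lactate dehydrogenase of mitochondria, stood at -0.59 and missed the threshold without either WT-aa array (highest adjusted p = 0.0721 by limma), with -0.36 without Mot1-aa culture 1. ZPS1 (YOL154W), a cell surface protein, stood at -0.57 and missed it without WT-aa culture 1 (adjusted p = 0.0629 by limma). SAM4 (YPL273W), of methionine metabolism, stood at -0.60, MF(ALPHA)2 (YGL089C), an alpha-factor gene, at -0.59, and HIS1 (YER055C), of histidine synthesis, at -0.57. Each of these missed it without several arrays, and the highest adjusted p by limma were 0.258, 0.320 and 0.225. Without Mot1-aa culture 2 SAM4 and MF(ALPHA)2 were at -0.32 and -0.36, and without Mot1-aa culture 1 HIS1 was at -0.31.

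The general stress genes, targets of the regulators Msn2 and Msn4, held the most called genes of any list. Of 39 measured, 21 were higher and 1 was lower, against 7.39% and 2.28% of all genes, and their median difference was 0.44 against -0.02 over all genes. SPI1 (YER150W), a cell wall protein, stood at 0.54 and 0.41 in Mot1-aa and -0.31 and -0.37 in WT-aa, a difference of 0.81 (SE 0.08). STF2 (YGR008C), a desiccation protectant, was higher by 0.81 (SE 0.07), and GPH1 (YPR160W), glycogen phosphorylase, by 1.10 (SE 0.11). The median was 0.59 in culture 1 and 0.37 in culture 2. The lower count was 3 without Mot1-aa culture 1. The count of higher genes was 21 without either Mot1-aa array, 8 without WT-aa culture 1 and 12 without WT-aa culture 2. Of 18 cytosolic heat shock chaperones 2 were higher and 1 lower, with a median of -0.06. That median was -0.11 and 0.02 without Mot1-aa cultures 1 and 2, and -0.15 and -0.01 without WT-aa cultures 1 and 2.

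The seripauperins (PAU genes) are cell wall proteins of a large family of near-identical copies, whose probes can take up RNA of one another. All 16 measured had a positive difference, 12 were called higher, and the median was 0.39 within a narrow range of 0.21 to 0.55. PAU22 stood at 0.74 and 0.94 against 0.25 and 0.46, a difference of 0.48 (SE 0.07). Both strains were above the pool, and Mot1-aa was the higher. The count was 15 without Mot1-aa culture 1, 6 without culture 2, and 4 and 1 without WT-aa cultures 1 and 2.

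Genes of ergosterol synthesis, the sterol pathway of yeast, were higher in 9 of 25 and lower in 0, with a median of 0.27. ERG24 (YNL280C), the sterol reductase, stood at 0.65 and 0.57 against -0.16 and -0.07, a difference of 0.72 (SE 0.09, adjusted p = 0.000547 by limma). ERG1 (YGR175C), squalene epoxidase, was higher by 0.62 (SE 0.08), and ERG25 (YGR060W), a sterol oxidase, by 0.50 (SE 0.07). The count was 10 without either Mot1-aa array and 6 and 4 without WT-aa cultures 1 and 2.

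Genes that act at the passage from G1 to S phase were higher in 7 of 16, with a median of 0.36. They included the G1 cyclin CLN1 (YMR199W), at 0.79 and 0.78 against 0.18 and 0.02, a difference of 0.68 (SE 0.09). The cyclin PCL1 (YNL289W), a partner of the kinase Pho85, was higher by 0.57 (SE 0.08), and the S phase cyclin CLB6 (YGR109C) by 0.54 (SE 0.09). The labels describe no synchronisation, and in bulk RNA a different share of cells in a phase and a different output per cell cannot be told apart. The count was 12 without Mot1-aa culture 1, 9 without culture 2, and 4 and 3 without WT-aa cultures 1 and 2.

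Purine synthesis and salvage genes were higher in 7 of 20 and lower in 0, with a median of 0.25. AAH1 (YNL141W), adenine deaminase, stood at 0.47 and 0.54 against -0.36 and -0.32, a difference of 0.85 (SE 0.06, adjusted p = 2.48e-05 by limma). HPT1 (YDR399W), which salvages hypoxanthine and guanine, was also higher by 0.85 (SE 0.12). Without WT-aa cultures 1 and 2 the count was 4 and 3, and without Mot1-aa cultures 1 and 2 it was 9 and 7.

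Genes of respiration were higher in a minority. Of 35 respiratory chain genes 7 were higher, with a median of 0.13, and CYC1 (YJR048W), cytochrome c, stood at 0.99 and 0.98 against 0.01 and -0.12, a difference of 1.04 (SE 0.09, adjusted p = 8.98e-05 by limma). The median of the respiratory chain genes was 0.08 and 0.21 without Mot1-aa cultures 1 and 2, and 0.11 and 0.16 without WT-aa cultures 1 and 2. Without Mot1-aa culture 1 some of them were called lower, as more of all genes were. Of 29 genes of the citrate and glyoxylate cycles 7 were higher and 3 lower. LSC2 (YGR244C), a subunit of succinyl-CoA ligase, was higher by 0.62 (SE 0.10), and DLD3 (YEL071W), a cytosolic lactate dehydrogenase, was lower at -0.54 (SE 0.07). The counts there were 2 higher and 1 lower without either WT-aa array.

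Of 25 genes of oxidative stress defence 5 were higher, among them SOD2 (YHR008C), superoxide dismutase of mitochondria, by 0.73 (SE 0.08). Of 27 cell wall genes 7 were higher, WSC4 and GSC2 among them, and of 20 genes of the phosphate regulon 5. PHO84 (YML123C), the main phosphate transporter of that regulon, was not called: it stood at -0.82 and 1.33 in Mot1-aa and at 0.70 and 0.84 in WT-aa. The Mot1-aa cultures lay on either side of WT-aa. Of 30 nitrogen catabolite repressed genes 6 were higher and 1 lower, led by the amino acid permease AGP1 (YCL025C) at 1.69 and 1.78 against 0.74 and 0.84, a difference of 0.95 (SE 0.07). Of 11 arginine synthesis genes 2 were higher, ARG3 (YJL088W), ornithine carbamoyltransferase, by 1.09 (SE 0.12), and CPA1 (YOR303W), a subunit of carbamoyl phosphate synthetase, by 0.52 (SE 0.08). In the same list 1 was lower, ARG2 at -0.31 (adjusted p = 0.0481 by limma), which missed the threshold without any of several arrays. Leaving out Mot1-aa cultures 1 and 2 and WT-aa cultures 1 and 2 in turn gave 10, 10, 5 and 3 higher cell wall genes, 5, 4, 3 and 2 phosphate genes, and 5, 7, 3 and 3 oxidative stress genes. It gave 10, 8, 5 and 2 nitrogen genes and 4, 3, 2 and 2 arginine genes. Without Mot1-aa culture 1, 5 nitrogen, 3 oxidative stress and 1 phosphate genes were lower.

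Genes of protein synthesis and turnover were mostly not called. Of 72 genes of large and 54 of small subunit ribosomal proteins, 3 were higher and 1 lower, and 0 and 0, with medians of -0.08 and -0.07. Many are near-identical pairs whose probes may not separate them. Of 69 mitochondrial ribosomal protein genes none was called, with a median of -0.12, and of 83 ribosome biogenesis genes 1 was called in each direction. Among 35 proteasome genes 3 were lower and 0 higher, and the median of -0.24 was the lowest of any list. PRE4 (YFR050C), a core subunit, stood at -0.46 and -0.36 against -0.06 and 0.05, a difference of -0.40 (SE 0.07), which missed the threshold without WT-aa culture 2 (adjusted p = 0.0554 by limma). These counts moved most without Mot1-aa culture 1, where 20 proteasome, 19 mitochondrial ribosomal, 12 small subunit, 8 large subunit and 21 ribosome biogenesis genes were lower, while 982 of all 5315 genes were. In the same fit 0, 5, 1, 7 and 11 genes of these lists were higher, and 963 of all genes. Without Mot1-aa culture 2 the medians of these lists, in the same order, were -0.13, -0.09, -0.07, -0.12 and -0.001. Without WT-aa culture 2 they were -0.20, -0.11, -0.10, -0.09 and -0.04.

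**Figure D2:**
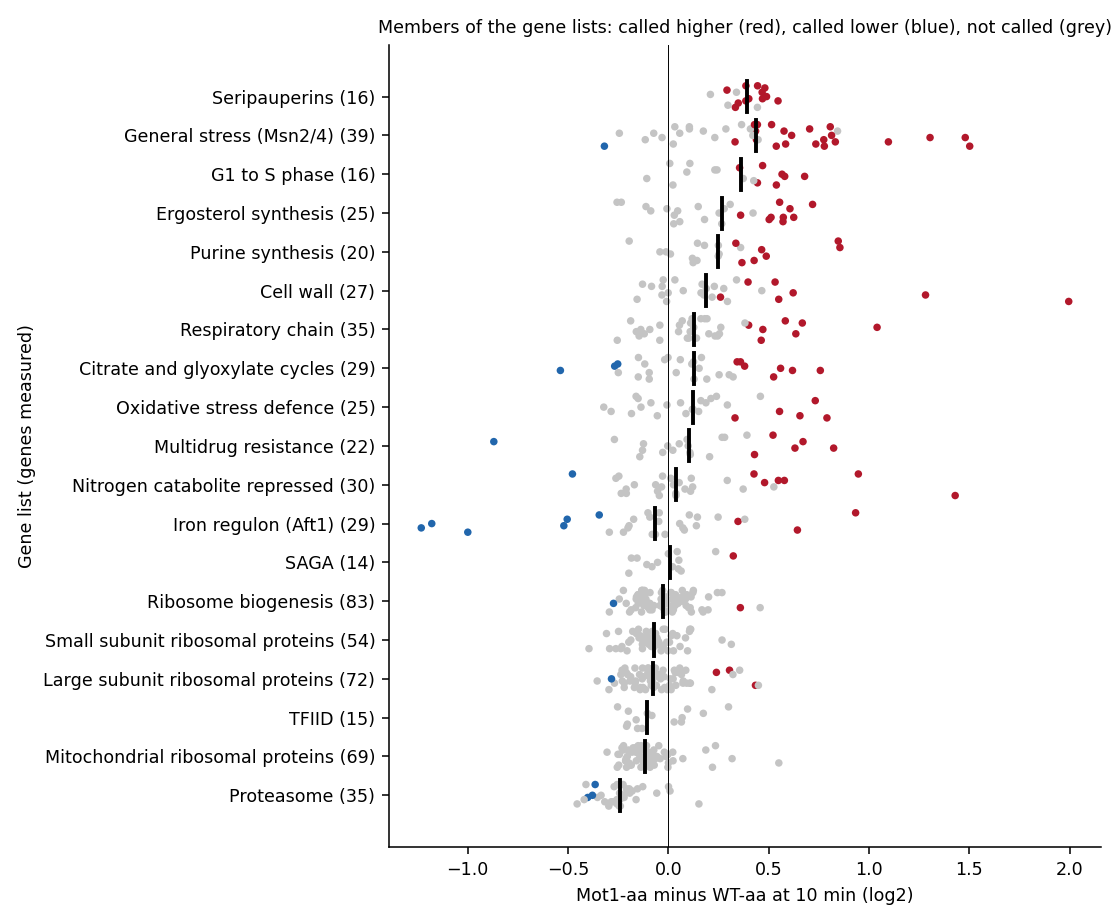
The strain difference at 10 min in log2 units (x axis) for each measured member of 19 gene lists (y axis, number of genes measured in brackets). Each point is a gene, red called higher, blue called lower, grey not called, and the black bar is the median, from 0.39 for the seripauperins and 0.44 for the general stress genes to -0.24 for the proteasome.

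Among the genes of Mot1's own machinery, NCB2 (YDR397C), a subunit of the TBP inhibitor NC2, was the sole called gene of 12 TBP genes and TBP regulators. It stood at 0.50 and 0.70 against -0.19 and -0.16, a difference of 0.77 (SE 0.09, adjusted p = 0.000547 by limma). BUR6, the other subunit of NC2, was not above the negative spots on any of the 4 arrays. SPT15 (YER148W), the gene of TBP, was not called, with a difference of 0.18 and a 95% interval of -0.05 to 0.42. Of 15 TFIID genes none was called, with a median of -0.10 and a range of -0.25 to 0.30. Of 14 SAGA genes 1 was, SGF11 at 0.32, which missed the threshold without any of 9 arrays (highest adjusted p = 0.238 by limma) and was 0.21 without Mot1-aa culture 1. The TFIID median was -0.03 and -0.08 without Mot1-aa cultures 1 and 2, and -0.08 and -0.15 without WT-aa cultures 1 and 2. Some TFIID genes were called, in both directions, when either Mot1-aa array was left out, and more of all genes were called then too. A p that misses the threshold at n = 2 does not show that TFIID or SAGA genes were equal in both strains.

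The 2 Mot1-aa cultures resembled each other less than the 2 WT-aa cultures did. The median absolute difference between the cultures of a strain was 0.254 in Mot1-aa and 0.0991 in WT-aa, and 78 genes in Mot1-aa against 1 in WT-aa differed by over 1 on the log2 scale. The strain differences of cultures 1 and 2 correlated across genes with r = 0.271, and 52.0% of genes had the same sign in both. The same r was 0.265 at 0 min, 0.941 at 20 min and 0.947 at 30 min. Genes are not independent replicates, and both arrays of a culture number share a dye orientation. All 514 called genes had the same sign in both cultures. The test favours such genes, so this is not separate evidence. Their sizes could still differ between cultures, as for CAR2 and SAM4. MOT1 and PHO84 were among the genes that set the Mot1-aa cultures apart, as were HAC1 (0.72 and -0.82) and SPT10 (1.00 and -0.60), chosen after their values were seen.

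KAR2 (YJL034W), the main chaperone of the endoplasmic reticulum, is a further case. Its difference of -0.74 did not pass (adjusted p = 0.104 by limma), with -0.39 and -1.30 in the Mot1-aa cultures and -0.22 and 0.0049 in WT-aa. It was -1.26 without Mot1-aa culture 1 (adjusted p = 0.000568 by limma) and -0.22 without culture 2. The first p takes its spread from the other groups and not from the gap between the Mot1-aa cultures. Of the 18 genes of endoplasmic reticulum chaperones and folding 1 was lower, ERV2 (YPR037C), a thiol oxidase, at -0.42 (SE 0.07). Without Mot1-aa cultures 1 and 2, 3 and 2 were lower.

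**Figure D3:**
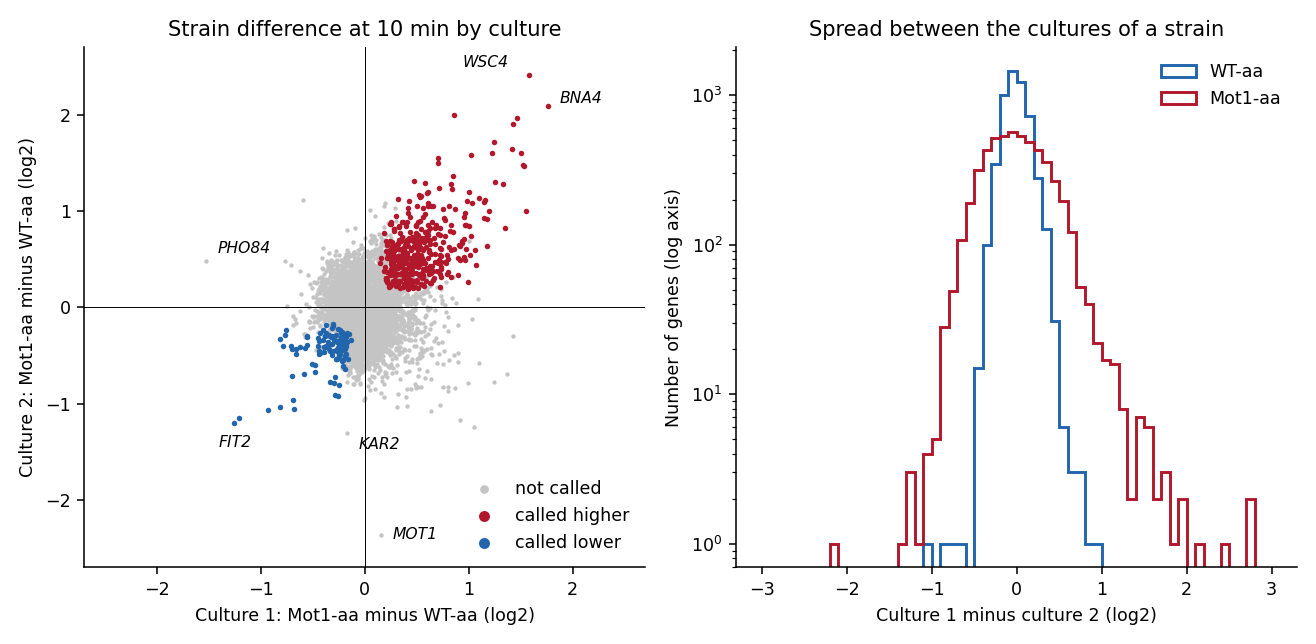
Left, the strain difference at 10 min in culture 1 (x axis) against culture 2 (y axis), both in log2 units, 1 point per gene, with called genes in red (higher) and blue (lower). Right, the number of genes (y axis, log scale) by culture 1 minus culture 2 (x axis, log2 units) within each strain: the Mot1-aa curve is the wider, with 78 genes beyond 1 against 1 in WT-aa.

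The same contrast before rapamycin takes its difference from other arrays than that at 10 min, and it shows how far the strains already differed. Both tests took each gene's spread from the same fit, so arrays of 10 min also helped to set the p-values at 0 min. The overlap of calls at 0 and 10 min is therefore not independent evidence, and the labels do not exclude shared cultures. At 0 min 143 genes were called (2.69%), 98 higher and 45 lower. Of these, 96 of the 98 higher were also higher at 10 min, which is 24.4% of the 393, and 32 of the 45 lower were also lower, 26.5% of the 121. No gene was called in opposite directions at 0 and 10 min. Among the 393 higher genes, 390 already had a positive difference at 0 min, and of the 121 lower 119 were negative. BNA4 was already higher by 1.57 (SE 0.09) at 0 min, WSC4 by 1.65 (SE 0.18) and HSP26 by 1.16 (SE 0.10), while FIT2 was at -1.34 (SE 0.09). Of the 15 highest genes 13 were called at 0 min, and of the 15 lowest 12. Leaving out either Mot1-aa array of 10 min gave 425 calls at 0 min, either WT-aa array of 10 min gave 93, and the range was 48 to 111 without any 1 of the others. Over all genes the fitted differences at 0 and 10 min correlated with r = 0.804. Arrays of 1 culture number share a dye orientation, and taken by culture the correlation was 0.644 and 0.787 between same-numbered cultures, but 0.271 and 0.339 between cultures of different number. How much of the 0.804 goes with the culture number or dye was not tested.

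The test of the change itself, the difference at 10 min minus the difference at 0 min, called 0 genes by limma (0%), with 225 genes at an unadjusted p under 0.05, below the 266 that a uniform p would give, and a smallest adjusted p of 0.112. No alternative setting called a gene except the leaving out of Mot1-aa 10 min culture 1, which gave 18, and of culture 2, which gave 1. The gene with the smallest p was YHR140W, at 1.30 at 10 min and 0.65 at 0 min, with a change of 0.65 (SE 0.09, adjusted p = 0.112 by limma). ICT1 (YLR099C), an acyltransferase, was at 0.63 at 10 min and 0.02 at 0 min, and MCR1 (YKL150W), a mitochondrial cytochrome reductase, at 1.13 and 0.70. YEL076C, a subtelomeric reading frame, was at 0.60 and 0.12, and BIO2 (YGR286C), biotin synthase, at -0.11 and -0.61. None of these changes passed. Which genes had moved between 0 and 10 min was not resolved with 2 arrays per group.

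**Figure D4:**
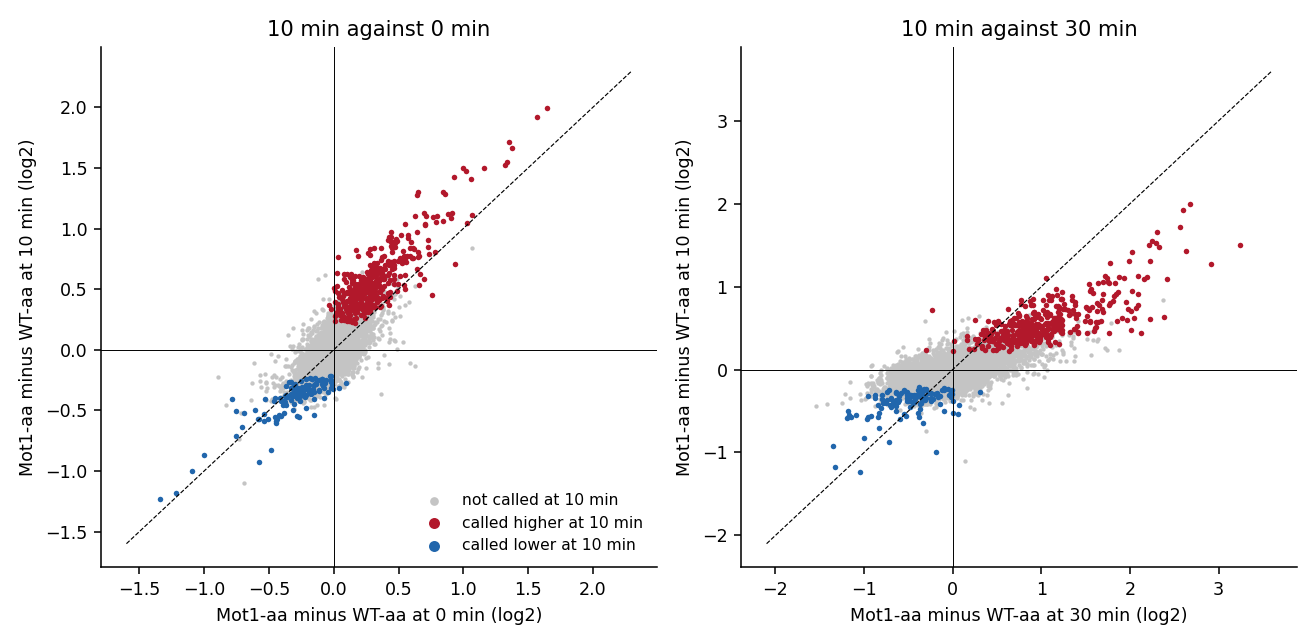
The strain difference at 10 min (y axis) against that at 0 min (left) and at 30 min (right), in log2 units, 1 point per gene. Genes called at 10 min are red (higher) and blue (lower), and the dashed line marks equal values: of the red genes 390 of 393 are positive at 0 min, and their median is 0.95 at 30 min against 0.52 at 10 min.

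At 20 min 1692 genes (31.8%) and at 30 min 2610 genes (49.1%) were called. Among the 393 genes called higher after 10 min, 388 were again called higher at 20 min and 388 at 30 min. Among the 121 called lower, 101 and 99 were again lower. The median over the 393 genes was 0.28 at 0 min, 0.52 at 10 min, 0.85 at 20 min and 0.95 at 30 min, and over the 121 genes -0.26, -0.36, -0.43 and -0.48. These genes were picked on their values at 10 min, so the medians at the other times are descriptions.

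The difference had grown beyond its 10 min value in 23 genes at 20 min (0.433%), and had changed in 540 at 30 min (10.2%), 372 upward and 168 downward. MTD1 (YKR080W), of cytosolic folate metabolism, was the clearest at both times: 0.48 (SE 0.07) at 10 min, 1.58 at 20 min and 2.01 at 30 min, with adjusted p = 0.0013 and 4.63e-05 for the change (limma). The catalase gene CTT1 (YGR088W) was at 0.44 (SE 0.08) at 10 min and 2.13 at 30 min, although its call at 10 min was lost without WT-aa culture 1 (adjusted p = 0.108 by limma). FRE4 was nearer to WT-aa at 30 min than at 10 min, with -0.19 against -0.999 (change 0.81, adjusted p = 0.0129 by limma). The median of the general stress genes was 0.35, 0.44, 0.93 and 1.41 at 0, 10, 20 and 30 min, and that of the ribosomal proteins of the large subunit -0.05, -0.08, -0.18 and -0.45. The seripauperins were at 0.09, 0.39, 0.99 and 0.95, and ergosterol synthesis at 0.04, 0.27, 0.67 and 0.67. Without either Mot1-aa 10 min array the counts at 20 and 30 min moved to 562 and 2364 (culture 1 left out) and to 161 and 678 (culture 2). Without any 1 of the other arrays they ranged from 1 to 22 and from 158 to 620.

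**Figure D5:**
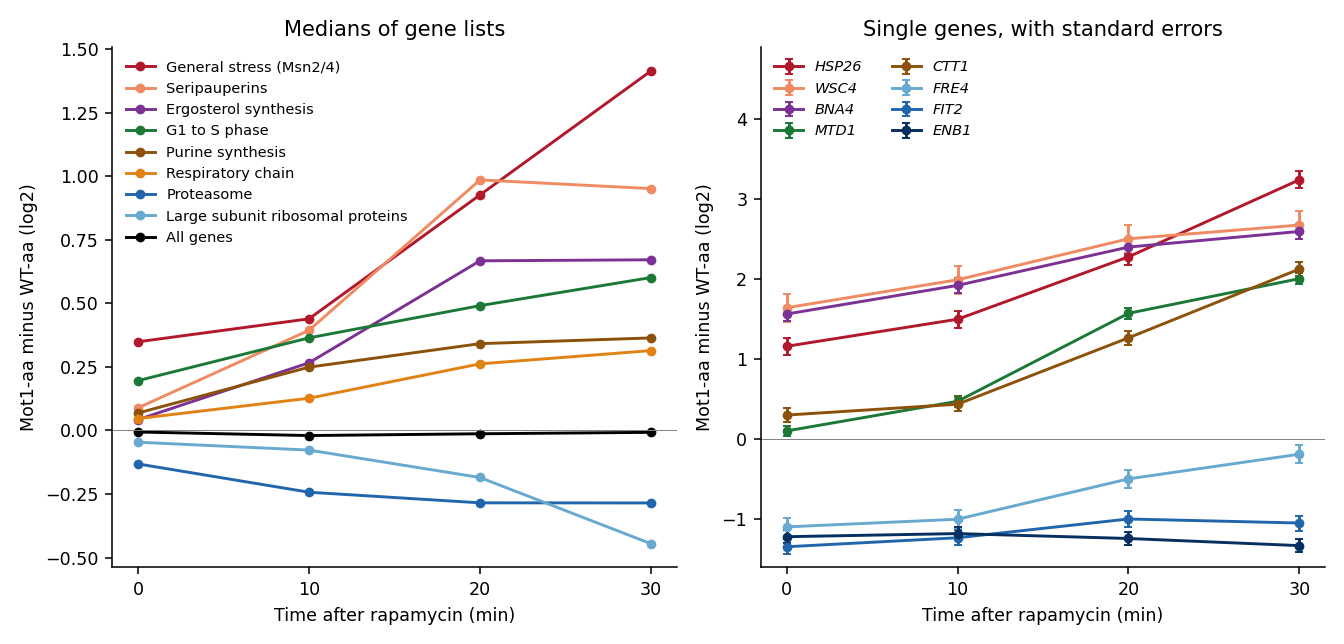
The strain difference in log2 units (y axis) at 0, 10, 20 and 30 min after rapamycin (x axis). Left, medians of 8 gene lists and of all genes. Right, 8 genes with their standard errors. HSP26 goes from 1.16 at 0 min to 1.50 at 10 min and 3.24 at 30 min, and FIT2 stays between -1.34 and -0.996.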

How the data were processed

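Per the file headers, the deposited scanner tables hold the intensity of each spot and its local background in Cy3 and Cy5, and the authors' value table holds log2 ratios. How the authors corrected background is not stated in the labels or headers. Here mean intensities were corrected with normexp (offset 50), normalised by loess within each array over gene spots, and turned to log2(sample/pool) by the dyes in the labels. Duplicate spots and probes of a gene were averaged. Of 6388 probes 5326 were named, giving 5315 genes, and 1062 were unnamed.

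All 16 arrays were fitted with limma 3.58.1 in R 4.3.3, with 8 groups and a dye term, leaving 7 residual degrees of freedom, and p-values were Benjamini-Hochberg adjusted over 5315 genes. The dye term equals the culture number, so it is also the replicate block. Deviations of same-numbered 10 min arrays from their group means correlated with r = 0.285 across genes, and dye and culture cannot be told apart. The fit was tested on simulated data.

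The text names the 15 genes with the largest called difference in each direction, members of gene lists, and genes said to be chosen after their values were seen. Genes and lists were chosen with earlier results of these data known. Alternatives were no dye term, median centring, scaling on external control spots, no background correction, offset 16, array weights, the authors' log2 ratios, fewer arrays, a filter on dim genes, and leaving out each array. Promoter motifs were not analysed here.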

Additional observations from a re-analysis of the deposited data

Results flagged for a closer look

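The strain difference at 10 min was smaller or larger than that at a later time, by limma's test of the change itself, in 23 genes at 20 min and in 540 genes at 30 min. Among genes described above or listed in the gene groups, the changes from 10 to 20 min were 1.10 for MTD1, 0.84 for CTP1, a mitochondrial citrate transporter, 0.76 for AGP1, 0.74 for FAA2, an acyl-CoA synthetase, and 0.73 for MCR1, all on the log2 scale. The changes from 10 to 30 min were 1.74 for HSP26, 1.69 for CTT1, 1.53 for MTD1, 1.08 for AGP1 and 0.96 for MCR1. All were further increases in Mot1-aa over WT-aa.

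Probes without a gene name entered none of the comparisons above. Of these 1062 probes 75 passed the threshold at 10 min (7.06%), 56 higher and 19 lower, against 9.61% of the named probes.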

How the results depend on the processing

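No gene named as higher or lower reversed its direction under any alternative, and no background correction, the authors' log2 ratios and the filter on dim genes kept the total at 10 min and the totals of the other comparisons below within 1.5 times; gene list counts were recomputed only without each 10 min array. The 514 calls at 10 min (393 higher, 121 lower) became 224 (196, 28) without the replicate block, which here is the dye term, 92 (85, 7) with array weights, 94 (87, 7) with the 4 arrays alone and 72 (66, 6) with the 8 arrays of 0 and 10 min. Scaling on external control spots, only 1.15 to 1.41 times over background, left 11 (10, 1), and median centring left 51 lower genes. The 143 calls at 0 min became 55 without the block, 4 with external control scaling and 10 with 8 arrays. The 23 changes from 10 to 20 min became 0 without the block, 1 with median centring, 0 with external control scaling, 15 with offset 16 and 1 with array weights. The 540 changes from 10 to 30 min became 137, 308, 0 and 168 (no block, median centring, external control scaling, array weights). Leaving out 1 array gave 177 to 1945 calls at 10 min (155 to 963 higher, 22 to 982 lower), 48 to 425 at 0 min, 0 to 18 changes from 0 to 10 min, 1 to 562 from 10 to 20 min and 158 to 2364 from 10 to 30 min. The cause was not tested. Of the 30 genes named by size, 11 passed under every alternative: WSC4, BNA4, ARO10, YLR112W, RPI1, HSP26, GCV1, XBP1, YHR140W, GAD1 and FIT2.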

Other observations

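Some groups not described above also held called genes at 10 min, when 7.39% of all genes were higher and 2.28% lower. The higher counts without Mot1-aa cultures 1 and 2 and WT-aa cultures 1 and 2 in turn are given after each group. Of 22 multidrug resistance genes 5 were higher and 1 lower (8, 5, 2 and 3). Of 17 folate and one-carbon genes 4 were higher and 1 lower (7, 4, 4 and 4). Of 16 pyrimidine genes 4 were higher and 1 lower (5, 2, 1 and 0). Of 24 sulfate and methionine genes 3 were higher (6, 5, 0 and 0). Of 13 genes of aromatic and branched amino acid breakdown, which include ARO9 and ARO10, 4 were higher (7, 5, 2 and 2).

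Of 11 pheromone response genes 2 were lower, and 1 without either WT-aa array. The regulator KAR4, one of them, stood at -0.35 and -0.40 in Mot1-aa and 0.08 on both WT-aa arrays. With all arrays none of the 10 histone genes was called. Some were called higher without Mot1-aa culture 1, when more of all genes were too. Their median was 0.14 and 0.11 without Mot1-aa cultures 1 and 2. All 10 had a positive difference, with a median of 0.14, against 2409 positive of all 5315 genes.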
